A study of Sus scrofa with 20 samples.

Results

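The genes described here encode chemokines and their receptors, interleukins with their receptors and binding proteins, and Toll-like receptors. They were chosen by gene symbol: a reference ID belonged to them when its RefSeq accession was paired with a pig symbol that starts with CCL, CXCL, CCR, CXCR, IL or TLR followed by a digit. This gave 78 IDs of 77 genes, of 21755 IDs counted and 6654 IDs with a symbol, and IL18BP was the gene with more than 1 ID. The 78 IDs comprised 15 CC chemokines, 8 CXC chemokines, 9 chemokine receptors, 20 interleukins, 14 interleukin receptors, 3 IDs of interleukin decoy or binding proteins and 9 Toll-like receptors. A further 55 pig symbols of these families had no counted ID and were not analysed here.

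RNA-Seq counts came from testis and liver of boars, intact male pigs, with low or high levels of androstenone, a testicular steroid that accumulates in fat and gives boar taint. The animals were crosses of Duroc with an F2 that combined Leicoma, German Landrace and Large White, aged 116 days, and no treatment, allele or transgene is given for them. There were 5 libraries in each of 4 groups, low androstenone testis, high androstenone testis, low androstenone liver and high androstenone liver, with 1 library per sample. Each group therefore held 5 boars, and the p-values measure the spread between them. Testis and liver came from the same 10 boars, but which libraries share a boar is not given, so the tissues were compared as independent samples.

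Chemokines are small secreted proteins that steer leukocytes along gradients through G protein-coupled receptors, and the CC and CXC classes are named after the spacing of their conserved cysteines. Interleukins carry signals between leukocytes and tissue cells, mostly through JAK and STAT proteins or, in the IL1 family, through MYD88. Toll-like receptors recognise microbial lipids, proteins and nucleic acids, and are well known from the macrophages of the liver, which receives blood from the gut, while the testis is regarded as an immune-privileged organ.

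The testis libraries held 6161397 to 15975386 counts and the liver libraries 5796973 to 26783002. On the scale of counts per 1000000 (CPM), 3 counts were worth 0.188 to 0.487 CPM in a testis library and 0.112 to 0.518 CPM in a liver library, a floor that covers counting error only. The tissue labels were checked against marker genes. All 3 Leydig cell markers and all 3 germ cell markers that had an ID were higher in testis, and all 4 hepatocyte markers were higher in liver. Of 3 Sertoli cell markers with an ID, 1 passed the threshold given below as higher in testis and 0 as higher in liver. Their summed level overlapped, at 4026 to 21790 CPM in testis and 2363 to 23242 CPM in liver. CPM are given on 1 scale for all 20 libraries, normalised by edgeR's TMM method, as lowest, median and highest of the 10 libraries of a tissue, or per boar for an androstenone group. CPM are not divided by transcript length, so levels were compared between samples and not between genes.

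A gene was taken as above 3 counts in a tissue when at least 5 of its 10 libraries had more than 3 counts. This held for 37 of the 78 IDs in testis and for 46 in liver. Both tissues passed for 32 IDs, testis alone for 5, liver alone for 14 and neither for 27. The 5 that passed in testis alone were CCL24, CCL27, CXCL13, IL1B2 and IL9R. The 14 that passed in liver alone were CCL16, CCL3L1, CCL4, CXCL11, CXCR3, IL10, IL15, IL23A, IL7, 1 ID of IL18BP and 4 Toll-like receptors, TLR4, TLR6, TLR8 and TLR10. By family, the IDs above 3 counts in testis and in liver numbered 8 and 9 of the 15 CC chemokines, 6 and 6 of the 8 CXC chemokines, and 3 and 4 of the 9 chemokine receptors. They numbered 5 and 8 of the 20 interleukins, 10 and 9 of the 14 interleukin receptors, 0 and 1 of the 3 decoy or binding protein IDs, and 5 and 9 of the 9 Toll-like receptors.

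Of the 27 IDs that passed in neither tissue, 11 were interleukins, several of them classical products of activated T cells. IL2, IL4, IL12B, IL13, IL1A and IL21 each gave at most 6 counts summed over the 10 libraries of a tissue. No read at all was counted in 20 libraries for CCL1, IL17A, IL19, IL9 and IL22RA2. These 5 IDs, and 9 others with under 10 counts in total (CCR10, IL12B, IL13, IL1A, IL2, IL21, IL4, IL1RAPL2 and IL23R), did not enter the comparison of the tissues, which left 64 IDs. Their difference between tissues was not detectable at this depth.

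Testis was compared with liver to see where this set of genes is transcribed. Of the 64 IDs tested, 46 were higher in liver and 12 were higher in testis. Here and in the rest of the text an ID is called when its adjusted p was under 0.05 and it differed by 1.5-fold or more in edgeR's quasi-likelihood test, with Benjamini-Hochberg adjustment over all 19065 IDs tested. The 58 called IDs were 90.6% of those tested, while 75.7% of all IDs tested were called. The same 90.6% had an unadjusted p under 0.05, against 80.2% of all IDs. Of all IDs tested, 32.2% were called higher in liver and 43.5% higher in testis, against 71.9% and 18.8% of these genes. The median log2 fold change, testis over liver, was -2.40 for these genes and 0.31 for all IDs. IDs with few counts passed the minimum of 10 summed counts through whichever tissue was higher, so these counts describe the IDs that passed it. The 10 testis libraries did not overlap the 10 liver libraries for 25 of the 64 IDs, or 39.1%, and for 42.8% of all IDs.

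**Figure D1:**
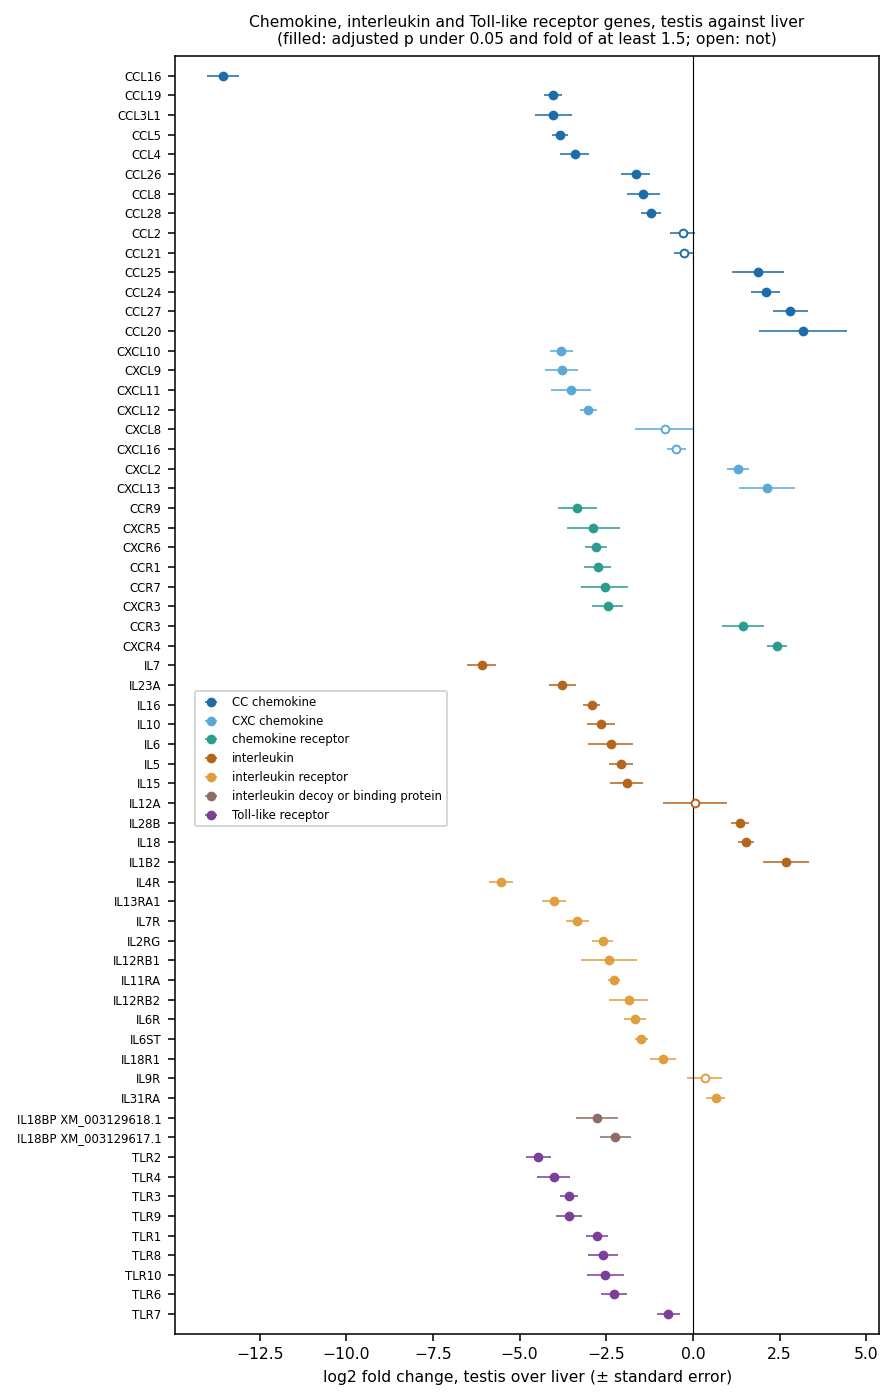
Log2 fold change (testis over liver, x axis) with its standard error for the 64 chemokine, interleukin and Toll-like receptor IDs tested, grouped and coloured by family; filled points passed the adjusted p and the fold change and open points did not. The 46 filled points left of 0 were higher in liver and the 12 filled points right of 0 higher in testis, and TLR7 and IL18R1 change sign when libraries are scaled by total counts.

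Scaling set part of this split. The TMM factors lay between 1.27 and 1.45 in testis and between 0.51 and 0.88 in liver. Without them, with total counts only, the median of all IDs moved from 0.31 to 1.28 and the share of called IDs that were higher in testis from 57.4% to 76.0%. Of the genes described here, 36 were then higher in liver and 14 higher in testis. The sign turned for 6 IDs, CCL2, CCL21, CXCL16, CXCL8, IL18R1 and TLR7, of which IL18R1 and TLR7 had been called higher in liver. Calls of 10 IDs were lost with total counts, those of IL18R1, TLR7, CCL26, CCL28, CCL8, IL15, IL12RB1, IL12RB2, IL6R and IL6ST, and CCL21 and IL9R were gained as higher in testis. The IDs other than those 6 kept their direction under each scaling used, TMM, RLE, total counts and DESeq2's size factors.

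Leukocyte markers moved the same way as most of these genes. Of 19 leukocyte marker IDs tested, 17 were higher in liver and 0 higher in testis, with a median log2 fold change of -3.01. Their summed level was 21.0 to 57.1 CPM in testis and 552 to 951 CPM in liver, and none of the 19 was at 0 in all libraries of either tissue. PTPRC, the common leukocyte antigen CD45, averaged 3.84 CPM in testis and 44.6 CPM in liver. In whole tissue, fewer cells of a type and less RNA per cell cannot be told apart, and the part of leukocyte content in the differences given here was not tested.

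Among the CC chemokines, 8 of the 14 tested were higher in liver, 4 were higher in testis and 2 did not pass. CCL16, known as a liver-expressed chemokine that attracts lymphocytes and monocytes, differed most. It measured 0, 0.153 and 0.692 CPM (lowest, median, highest) in testis and 1830, 2525 and 3621 CPM in liver. Every liver library was far above every testis library. The log2 fold change was -13.56 ± 0.466 (SE; edgeR adjusted p = 2.61e-18). The 32 testis reads were few beside 223184 liver reads. The hepatocyte product ALB was likewise counted in testis, at 0.506 to 31.3 CPM against 77685 to 226300 CPM in liver, with a log2 fold change of -14.20, and the origin of these testis reads was not tested.

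CCL19, which guides lymphocytes and dendritic cells through CCR7, measured 1.31, 2.23 and 6.64 CPM in testis and 19.8, 43.8 and 85.8 CPM in liver, with no overlap (log2 fold change -4.04 ± 0.265, edgeR adjusted p = 4.09e-13). CCL21, the other CCR7 ligand, was chosen after its values were seen because it did not follow CCL19. It measured 32.4, 114 and 204 CPM in testis and 61.3, 120 and 224 CPM in liver, and the ranges covered each other. Its log2 fold change of -0.26 ± 0.288 missed the threshold (edgeR adjusted p = 0.413), and with total counts it was 0.76 and passed. Their receptor CCR7 had 5 counts summed over testis and 22 summed over liver, under the floor in most libraries of both.

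The inflammatory chemokines CCL5, CCL3L1 and CCL4, which attract T cells and monocytes, were also higher in liver. CCL5 measured 0.562, 1.46 and 2.63 CPM in testis and 11.2, 19.0 and 33.0 CPM in liver (log2 fold change -3.84 ± 0.235, edgeR adjusted p = 1.00e-13). No testis library reached the lowest liver library. CCL3L1 and CCL4, close relatives of each other, had log2 fold changes of -4.03 and -3.42. CCL3L1 measured 0, 0.0796 and 0.192 CPM in testis and 0, 1.42 and 2.50 CPM in liver, where replicate 4 of the high androstenone group was at 0 and the other 9 libraries were above all testis libraries. Reads of such closely related genes may have been divided between IDs in a way the sources do not state. CCL26, CCL8 and CCL28 had smaller differences, with log2 fold changes from -1.66 to -1.22, and all 3 ranges overlapped between the tissues.

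The 4 CC chemokines that were higher in testis had low counts. CCL27, a ligand of CCR10 known from skin, measured 0.292, 0.744 and 1.7 CPM in testis and 0, 0.148 and 0.224 CPM in liver, with no overlap (log2 fold change 2.81 ± 0.508, edgeR adjusted p = 2.00e-05). CCL24, an eosinophil chemokine that acts through CCR3, measured 0.641, 1.28 and 3.54 CPM in testis and 0, 0.272 and 1.02 CPM in liver (log2 fold change 2.10 ± 0.424), with overlap between the highest liver and the lowest testis libraries. CCR3 itself measured 0, 0.186 and 0.373 CPM in testis and 0, 0.0374 and 0.208 CPM in liver. Both ranges of CCR3 lay around or under the floor of 3 counts, with 28 counts summed in testis and 5 in liver. Its log2 fold change was 1.45 ± 0.610 (edgeR adjusted p = 0.0331). The call of CCR3 was lost with DESeq2 and with the replicate block. It was also lost without any 1 of high testis replicate 1, low liver replicate 1, high liver replicate 1 and high liver replicate 3, where the adjusted p rose to at most 0.0963.

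CCL20, a ligand of CCR6 made by epithelia, had 13 counts in testis, from 4 of its 10 libraries, and 0 in liver. CCL20 passed the minimum of 10 summed counts through testis alone. Set against 3 counts over the liver libraries together, its testis level was 2.42-fold higher, taking the 13 counts as exact. Its edgeR adjusted p was 0.0312, and that of DESeq2 was 0.575. It entered 18 of the 20 fits that each left out 1 library and was called in 17. Without replicate 5 of the low androstenone testis group its adjusted p was 0.0513. CCL25, a thymus and gut chemokine that binds CCR9, had 24 counts in testis and 3 in liver. Their ratio on the TMM scale was 4.48, with an exact 95% counting interval of 1.36 to 23.2. This interval covers counting error only and leaves out the spread between boars. CCL25 too passed the minimum of 10 summed counts through testis alone, so the interval is no independent test of its direction. The edgeR adjusted p of CCL25 was 0.0244. It rose to 0.0726 without high testis replicate 1 and to 0.0513 without high liver replicate 3. CCR9 was called in the other direction, with a log2 fold change of -3.33, from 4 counts in testis and 33 in liver.

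Of the 8 CXC chemokines, 4 were higher in liver, 2 were higher in testis and 2 did not pass. The CXCR3 ligands CXCL9, CXCL10 and CXCL11, which interferon induces, were all in the first group. CXCL10 measured 2.14, 7.74 and 18.3 CPM in testis and 44.6, 116 and 203 CPM in liver (log2 fold change -3.80 ± 0.336, edgeR adjusted p = 1.43e-10), and the 10 liver libraries were above all 10 of testis. CXCL9 measured 0.833, 1.18 and 3.80 CPM in testis and 4.71, 12.8 and 122 CPM in liver (log2 fold change -3.78 ± 0.473). The tissues did not overlap, and the highest liver value came from replicate 2 of the low androstenone group, far above the next at 27.2 CPM. CXCL11 had a log2 fold change of -3.52, and their receptor CXCR3 one of -2.46 with overlapping ranges.

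CXCL12, which retains stem cells and lymphocytes in tissues, and its receptor CXCR4 differed in opposite directions. CXCL12 was chosen after its values were seen, for this reason. It measured 7.39, 17.3 and 27.1 CPM in testis and 74.0, 129 and 236 CPM in liver, without overlap (log2 fold change -3.02 ± 0.246, edgeR adjusted p = 3.02e-11). CXCR4 measured 5.16, 11.7 and 16.4 CPM in testis and 0.673, 1.94 and 3.63 CPM in liver, again without overlap (log2 fold change 2.42 ± 0.293, edgeR adjusted p = 4.60e-08). ACKR3, the other receptor of CXCL12, did not pass, with a log2 fold change of 0.43 and an edgeR adjusted p of 0.110. Both directions of the CXCL12 and CXCR4 pair held under each scaling and without any 1 library.

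CXCL13, a B cell chemokine, was called higher in testis on a few libraries. It measured 0.0532, 0.355 and 6.4 CPM in testis and 0, 0.164 and 1.64 CPM in liver (log2 fold change 2.14 ± 0.809, edgeR adjusted p = 0.0187). Replicate 4 of the low group, at 6.4 CPM, and replicate 5 of the high group, at 4.32 CPM, carried most of the testis signal. Without the first the log2 fold change was 1.54 (edgeR adjusted p = 0.0693), and without the second it was 1.02 (edgeR adjusted p = 0.218). CXCL2, a neutrophil chemokine, measured 0.735, 0.968 and 1.6 CPM in testis and 0.183, 0.374 and 0.880 CPM in liver (log2 fold change 1.30 ± 0.309, edgeR adjusted p = 0.000507). CXCL16, the ligand of CXCR6, was chosen after its values were seen and did not pass, with 20.2, 41.7 and 58.3 CPM in testis and 21.5, 56.6 and 109 CPM in liver (log2 fold change -0.48 ± 0.274). CXCR6 was 1 of the 6 chemokine receptors higher in liver, with a log2 fold change of -2.79 and no overlap. Beside CXCR6, CXCR3 and CCR9, the receptors CCR1, CCR7 and CXCR5 were called higher in liver. CCR1 and CCR7 had log2 fold changes of -2.75 and -2.55. CXCR5 had 1 count in testis and 9 in liver, a ratio of 0.0622 with an exact 95% counting interval of 0.00142 to 0.449. That interval covers counting error only and leaves out the spread between boars. CXCR5 only just reached the minimum of summed counts, mostly through its liver reads. No library of either tissue passed the floor for CXCR5. Its interval and its call are therefore no independent test of its direction. The edgeR log2 fold change of CXCR5 was -2.87.

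**Figure D2:**
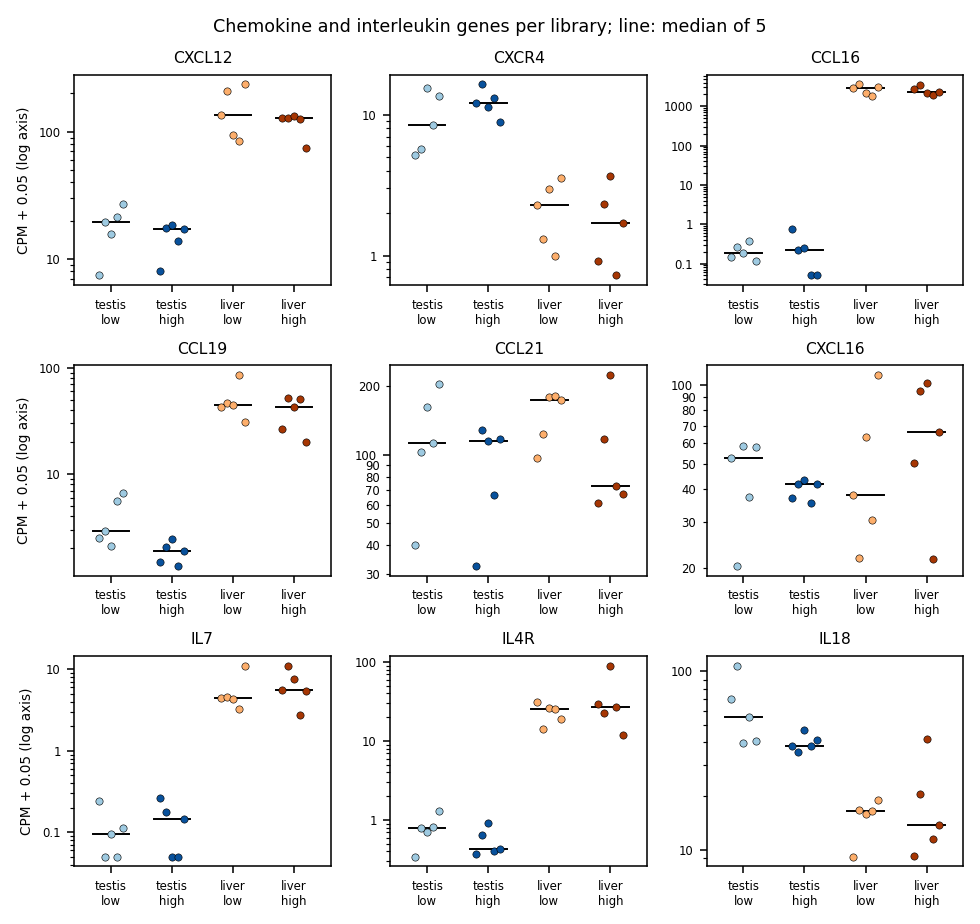
CPM + 0.05 (log axis) of 9 chemokine, receptor and interleukin genes in each of the 20 libraries, by tissue and androstenone level; each point is a library and the line is the median of 5. CCL16, CXCL12, CCL19, IL7 and IL4R lay higher in every liver library than in any testis library, CXCR4 lay higher in testis, and CCL21 and CXCL16 overlapped between the tissues, with a sign that turns under total-count scaling.

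Of the 11 interleukins tested, 7 were higher in liver, 3 were higher in testis and IL12A did not pass. IL7, a survival factor of lymphocytes that stromal cells make, measured 0, 0.0537 and 0.213 CPM in testis and 2.69, 4.90 and 11.0 CPM in liver. The lowest liver library was above the highest testis library by more than 10 times, and the log2 fold change was -6.09 ± 0.423 (edgeR adjusted p = 1.26e-12). Its receptor chain IL7R was also higher in liver, with a log2 fold change of -3.34. IL23A, the p19 subunit of IL23, measured 0, 0.0795 and 0.321 CPM in testis and 0.550, 1.36 and 2.03 CPM in liver, with no overlap (log2 fold change -3.76 ± 0.392, edgeR adjusted p = 3.11e-09). The other 5 called higher in liver were IL16, IL10, IL6, IL5 and IL15, with log2 fold changes from -2.92 to -1.91.

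IL18, a cytokine of the IL1 family that is stored as a precursor, was higher in testis. It measured 35.1, 40.8 and 108 CPM in testis and 9.05, 16.1 and 41.6 CPM in liver (log2 fold change 1.53 ± 0.243, edgeR adjusted p = 3.22e-06). The ranges overlapped through 1 liver library, replicate 3 of the high androstenone group. It was at 41.6 CPM, above the testis median, and the next liver library was at 20.4 CPM. Its receptor IL18R1 and its soluble antagonist IL18BP were called higher in liver, with log2 fold changes of -0.87 for IL18R1 and of -2.77 and -2.24 for the 2 IDs of IL18BP. The call of IL18R1 was lost with DESeq2, and its sign turned with total counts.

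IL1B2, a pig copy of the interleukin 1 beta gene, had 46 counts in testis and 3 in liver (edgeR adjusted p = 0.000761). Their ratio was 8.58, with an exact 95% counting interval of 2.76 to 43.1 that leaves out the spread between boars. IL1B had no counted ID, so reads of the near-identical copies cannot be told apart. IL28B, an interferon lambda, measured 1.78, 3.53 and 6.30 CPM in testis and 0.745, 1.14 and 2.32 CPM in liver (log2 fold change 1.36 ± 0.256, edgeR adjusted p = 3.28e-05), and the ranges overlapped.

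Interleukin receptors were mostly higher in liver, 10 of 12 tested, with IL31RA higher in testis and IL9R not passing. IL4R, the chain shared by the IL4 and IL13 receptors, measured 0.292, 0.634 and 1.27 CPM in testis and 11.9, 25.9 and 89.8 CPM in liver (log2 fold change -5.53 ± 0.347, edgeR adjusted p = 1.64e-13). IL13RA1, its partner in the IL13 receptor, measured 0.119, 0.754 and 1.25 CPM in testis and 5.30, 9.40 and 32.1 CPM in liver (log2 fold change -4.01 ± 0.350). Neither gene overlapped between the tissues. The highest liver library was replicate 3 of the high group for IL4R and replicate 2 of the low group for IL13RA1. Their ligands IL4 and IL13 had 6 counts and 1 count in testis and 0 in liver.

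IL6ST and IL11RA, receptors of the IL6 family, were well counted in testis too. IL6ST, the signal transducer gp130, measured 8.21, 9.50 and 12 CPM in testis and 17.9, 23.5 and 51.6 CPM in liver (log2 fold change -1.50 ± 0.187), and IL11RA measured 17.8, 25.4 and 35.5 CPM in testis and 94.4, 118 and 204 CPM in liver (log2 fold change -2.29 ± 0.169). Neither overlapped, and both were chosen after their values were seen, as was IL6R. IL6R measured 0.214, 1.03 and 3.09 CPM in testis and 0.798, 3.10 and 5.61 CPM in liver. Its ranges overlapped, with a log2 fold change of -1.66. With total counts the log2 fold change of IL6ST was -0.52, which is smaller than 1.5-fold. That of IL6R was then -0.73, and its call was lost (edgeR adjusted p = 0.0528). IL31RA, which forms the receptor of IL31, measured 0.476, 1.31 and 2.14 CPM in testis and 0.293, 0.713 and 1.84 CPM in liver. The ranges overlapped widely, the log2 fold change was 0.66 ± 0.277 (edgeR adjusted p = 0.0335), and the call was lost in 9 of 20 fits that each left out 1 library.

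All 9 Toll-like receptors were higher in liver, with log2 fold changes from -4.47 to -0.71. The receptors of bacterial surface components came first. TLR2, which recognises lipoproteins, measured 0, 0.534 and 0.759 CPM in testis and 4.71, 9.81 and 33.7 CPM in liver (log2 fold change -4.47 ± 0.358, edgeR adjusted p = 2.09e-11). TLR4, the receptor of lipopolysaccharide, measured 0, 0.154 and 0.287 CPM in testis and 0.673, 1.92 and 7.50 CPM in liver (log2 fold change -4.02 ± 0.482). Neither overlapped between the tissues. The partners and relatives of TLR2, namely TLR1, TLR6 and TLR10, had log2 fold changes of -2.76, -2.27 and -2.53. TLR1 and TLR6 did not overlap between the tissues and TLR10 did. The sequences of these 3 genes are close, and how reads matching more than 1 of them were counted is not given in the sources used here.

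The receptors of nucleic acids, which sit in endosomes, differed more among themselves. TLR3, a sensor of RNA duplexes, measured 0.292, 0.857 and 1.73 CPM in testis and 7.05, 11.6 and 26.9 CPM in liver, without overlap (log2 fold change -3.58 ± 0.269, edgeR adjusted p = 6.18e-12). TLR9, a sensor of unmethylated CpG DNA, measured 0, 0.327 and 0.855 CPM in testis and 0.833, 3.32 and 7.20 CPM in liver (log2 fold change -3.57 ± 0.383), with overlap only between the highest testis and the lowest liver library. TLR8 measured 0, 0.0911 and 0.253 CPM in testis and 0.147, 0.655 and 1.14 CPM in liver (log2 fold change -2.60 ± 0.428). TLR7, like TLR8 a sensor of RNA, measured 0.192, 0.393 and 0.681 CPM in testis and 0.183, 0.657 and 1.47 CPM in liver. The ranges of TLR7 overlapped almost throughout. Its log2 fold change of -0.71 ± 0.322 passed narrowly (edgeR adjusted p = 0.0472), turned to 0.28 with total counts, and missed the threshold in 12 of 20 fits that each left out 1 library.

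**Figure D3:**
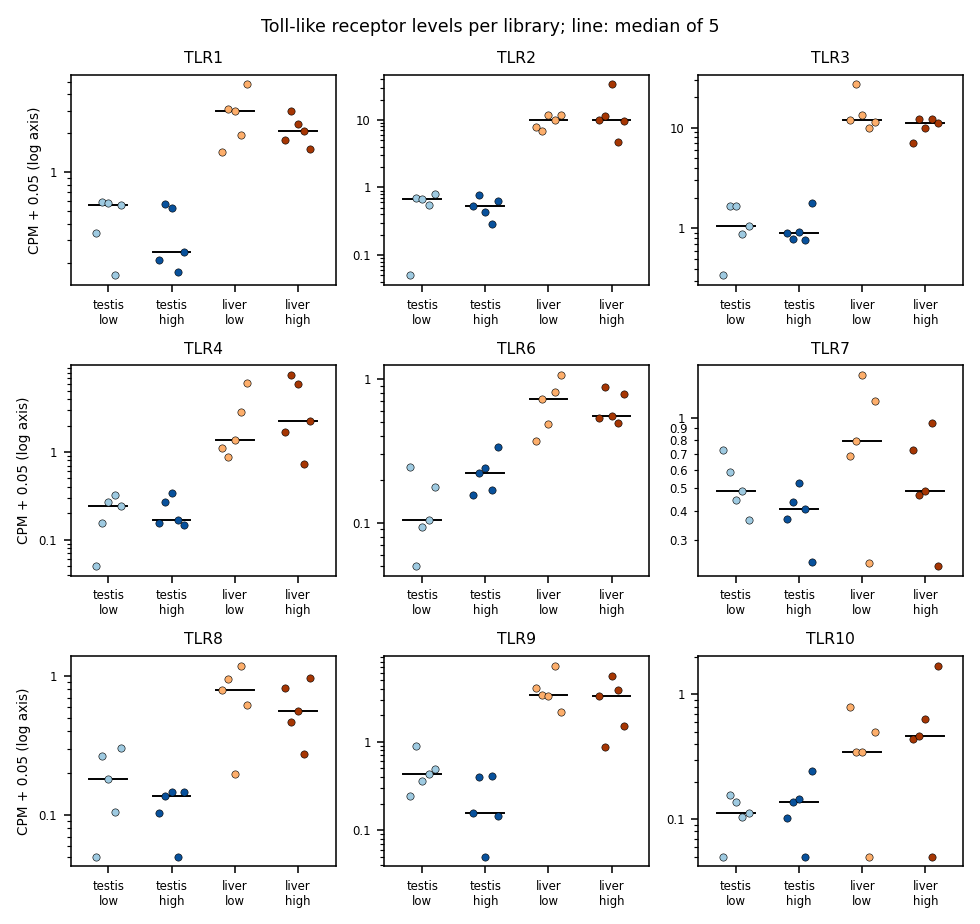
CPM + 0.05 (log axis) of the 9 Toll-like receptors in each of the 20 libraries, by tissue and androstenone level; each point is a library and the line is the median of 5. Liver medians exceeded testis medians for all 9 at both androstenone levels on the TMM scale. The libraries of the tissues overlapped for TLR7, TLR8, TLR9 and TLR10, and the fold change of TLR7 turns its sign under total-count scaling.

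The proteins that act with these receptors were split in the same comparison. Of 18 genes of Toll-like receptor and IL1 signalling with an ID, 13 were higher in liver, 3 higher in testis and 2 did not pass. Among all IDs tested, 32.2% were called higher in liver and 43.5% higher in testis. The lists in this paragraph were counted on the TMM scale alone. With total counts the median of all IDs moved from 0.31 to 1.28, so small differences toward liver depend on scaling. CD14, the lipopolysaccharide co-receptor and also a monocyte and macrophage marker, measured 0.292 to 2.02 CPM in testis and 312 to 541 CPM in liver (log2 fold change -8.71), and the adaptor TIRAP had a log2 fold change of -3.73. The 3 higher in testis were IRF7, a transcription factor of the interferon response, and the kinases CHUK and IKBKB, with log2 fold changes of 1.33, 0.84 and 0.78. Of 13 genes of the JAK, STAT and SOCS families tested, 8 were higher in liver, with STAT2 at -3.68 and STAT3 at -3.11 furthest apart. The other 4 called were higher in testis, led by SOCS5 at 2.65 and the kinase JAK3 at 1.73, which pairs with IL2RG. Of 7 other inflammatory cytokines tested, 4 were higher in liver, with TNF at -4.42 and LTB at -2.55 as the furthest, and LTA was higher in testis at 1.93. Of 9 listed genes of chemokine scavenging and of the XC and CX3C system, 4 had an ID, and CX3CL1 and CX3CR1 had none. Among these 4, XCL1 and its receptor XCR1 were higher in liver, at -4.30 and -3.31, and ACKR3 and ACKR4 did not pass.

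High androstenone was compared with low androstenone within each tissue, the contrast for which the boars were chosen. In testis 56 IDs were tested and 0 were called by edgeR's quasi-likelihood test, which called 0.0% of all 18340 IDs, with a lowest adjusted p of 0.345 among these genes. DESeq2 called 0 of the 56, and a likelihood ratio test on the trended dispersion alone called 2, CCL19 and CXCL10. That test leaves out each gene's own spread between boars. Its share of calls over all IDs is not given here, so these 2 calls were not read as a result about these genes. An unadjusted p under 0.05 was reached by 10 of the 56, or 17.9%, against 9.49% of all IDs. All 10 had a negative log2 fold change, high over low androstenone. Over the 56 IDs, 40 log2 fold changes were negative, or 71.4%, and the median was -0.32, while 52.0% of all IDs were negative, with a median of -0.02. Genes measured in the same libraries are not independent of each other.

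CCL19 was the first of these in testis by unadjusted p. It measured 2.43, 2.89, 2.08, 5.53 and 6.64 CPM in the 5 low boars and 1.44, 1.99, 2.39, 1.31 and 1.82 CPM in the 5 high boars. The highest values were those of low replicates 4 and 5, and 1 high boar reached above the lowest low boar. Its log2 fold change was -1.16 ± 0.337 (edgeR adjusted p = 0.345). An exact two-sided permutation test of log2(CPM + 0.5) gave p = 0.0159, where 5 against 5 allow no p below 0.00794. Permutation p-values here and below are unadjusted. They belong to genes chosen by their values in the same libraries and are no independent support.

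CCL5 measured 1.56, 2.24, 1.37, 2.63 and 2.02 CPM in the low boars and 0.798, 0.562, 0.670, 0.833 and 1.82 CPM in the high boars. The groups overlapped through high replicate 5 alone. The log2 fold change was -1.13 ± 0.345 (edgeR adjusted p = 0.355), with an exact permutation p of 0.0238. CXCR3, the receptor that marks effector T cells, measured 0.195, 0.641, 0.177, 0.438 and 0.316 CPM in the low boars and 0.106, 0.130, 0, 0 and 0.0960 CPM in the high boars. It was the one ID whose 5 low and 5 high testis libraries did not overlap, as 1.86% of all IDs did not, 1.1% of them with the high group lower. It had 31 counts over the 10 libraries, and 4 of these passed 3 counts. The log2 fold change was -1.98 ± 0.638 (edgeR adjusted p = 0.390). Its exact permutation p was 0.00794, the value that any full separation of 5 against 5 gives. That p restates the absence of overlap and adds no support to it.

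IL2RG, the common gamma chain of the IL2, IL4, IL7 and IL15 receptors, measured 0.584, 1.39, 2.08, 1.53 and 3.35 CPM in the low boars and 0.373, 1.17, 0.766, 0.833 and 0.768 CPM in the high boars. The groups overlapped, with low replicate 1 among the high values and low replicate 5 at the top. Its log2 fold change was -1.23 ± 0.409 (edgeR adjusted p = 0.403), with an exact permutation p of 0.0714. CXCL9 measured 0.973, 2.46, 1.46, 1.7 and 3.80 CPM in the low boars and 1.01, 1.30, 1.05, 0.833 and 1.06 CPM in the high boars. All high boars lay below all low boars except low replicate 1. The log2 fold change was -0.98 ± 0.340 (edgeR adjusted p = 0.429), with an exact permutation p of 0.0397.

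CXCL10, another CXCR3 ligand, measured 2.14, 10.8, 18.3, 9.58 and 17.0 CPM in the low boars and 4.47, 6.74, 3.35, 3.57 and 8.73 CPM in the high boars. Low replicate 1 was the lowest of the 10 libraries and the other 4 low boars were above all high boars. Its log2 fold change was -1.12 ± 0.414 (edgeR adjusted p = 0.437), with an exact permutation p of 0.167. The likelihood ratio test on the trended dispersion alone gave CXCL10 an adjusted p of 0.00723 and CCL19 one of 0.0420. These 2 values leave out each gene's own spread between boars. The other 4 with an unadjusted p under 0.05 were IL18, IL16, CCL2 and IL11RA, with log2 fold changes of -0.68, -0.89, -0.98 and -0.40. CXCL10 and these 4 were chosen after their values were seen.

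**Figure D4:**
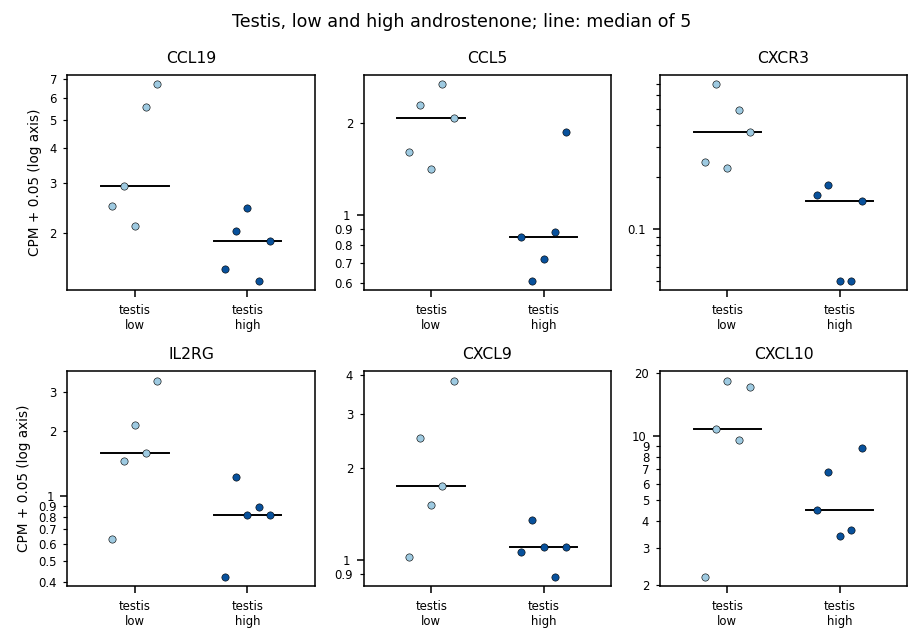
CPM + 0.05 (log axis) of CCL19, CCL5, CXCR3, IL2RG, CXCL9 and CXCL10 in the 5 low and 5 high androstenone testis libraries; each point is a boar and the line is the median of 5. The medians were lower in the high group for all 6 genes, none passed the adjusted threshold of edgeR's quasi-likelihood test, and the 2 groups were separate for CXCR3 alone.

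In the same 10 libraries most leukocyte markers also had negative values. Of 19 tested, 15 had a negative log2 fold change, with a median of -0.70, 7 had an unadjusted p under 0.05 and 0 were called. Their summed level was 21.0 to 57.1 CPM in the low boars, highest in low replicate 5, and 21.8 to 30.6 CPM in the high boars. The 3 interferon response genes measured also had negative log2 fold changes, with a median of -1.69, and their summed level reached 91.0 CPM in low replicate 3 against at most 12 CPM in the high boars. The blood marker HBB, a hemoglobin chain, averaged 111 ± 91.7 CPM (SD, n = 5) in the low boars and 34.4 ± 13.5 CPM (SD, n = 5) in the high boars. High over low, HBB had a log2 fold change of -1.71 ± 0.520 (edgeR adjusted p = 0.354). The part of leukocytes, interferon response and blood in the values above was not tested. Of the 37 IDs above 3 counts in testis, 28 had their highest library in the low group and 11 of these in low replicate 5. Without that library 7 of 54 IDs had an unadjusted p under 0.05, 36 were negative and the median was -0.19. Across all fits that left out 1 library, the number of negative IDs ranged from 36 to 41. For all IDs, neither the place of the highest library nor the counts of these fits are given here. A tendency of whole testis libraries therefore cannot be told apart from one of these genes.

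Toll-like receptors showed no call with androstenone in testis, with log2 fold changes from -1.13 for TLR9 to 1.00 for TLR6. TLR9 measured 0.195, 0.855, 0.309, 0.383 and 0.443 CPM in the low boars and 0.106, 0.346, 0, 0.357 and 0.0960 CPM in the high boars (standard error 0.593, edgeR adjusted p = 0.557). TLR6 measured 0.195, 0, 0.0441, 0.0547 and 0.127 CPM in the low boars and 0.106, 0.173, 0.192, 0.119 and 0.288 CPM in the high boars (standard error 0.655, edgeR adjusted p = 0.644). Both genes overlapped between the groups, at levels around or under 3 counts. A difference of the size of these standard errors was not detectable at this depth.

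In liver 56 IDs were tested, and edgeR's quasi-likelihood test called 0, as DESeq2 and the trended dispersion did, against 0.0% of all 15855 IDs. The lowest adjusted p was 0.9998. An unadjusted p under 0.05 was found for 3 IDs, or 5.36%, against 2.93% of all IDs. That count was 1 without high replicate 1, 5 without low replicate 3, low replicate 4 or high replicate 2, 6 without high replicate 4, and 0 with the replicate number as a block. The number of negative log2 fold changes was 39, or 69.6%, with a median of -0.19, while 48.3% of all IDs were negative with a median of 0.01. No ID separated the 5 low from the 5 high livers, as 0.555% of all IDs did. Of the 46 IDs above 3 counts in liver, 29 had their highest library in the low group, 10 in low replicate 2 and 9 in low replicate 5. Leaving out 1 library moved the number of negative IDs between 33 and 40 and the median between -0.27 and -0.07. As in testis, these counts are not given for all IDs, so they are not read as a trait of these genes. Of 18 leukocyte markers, 15 were negative, with a median of -0.24, and the summed level was 572 to 951 CPM in the low livers and 552 to 835 CPM in the high livers.

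IL31RA had the smallest unadjusted p in liver. It measured 0.532, 0.747, 0.293, 0.568 and 0.679 CPM in the low livers and 1.84, 1.67, 1.09, 1.35 and 0.367 CPM in the high livers. Apart from high replicate 5, every high liver was above every low liver. High over low, the log2 fold change was 1.18 ± 0.467 (edgeR adjusted p = 0.9998), with an exact permutation p of 0.0476. CCR9, a homing receptor of gut lymphocytes, measured 0.745, 0.224, 0.587, 0.568 and 1.02 CPM in the low livers and 0.193, 0.208, 0.0725, 0.224 and 0.367 CPM in the high livers (log2 fold change -1.55 ± 0.640, exact permutation p = 0.0238). The groups overlapped, and 3 of the 10 libraries had more than 3 counts.

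CXCL13 in liver rested on a pair of low boars. It measured 0.106, 1.64, 0, 0.189 and 1.24 CPM in the low livers and 0.0966, 0, 0.145, 0.224 and 0.183 CPM in the high livers (log2 fold change -2.23 ± 0.955, exact permutation p = 0.302). The other low livers lay within the range of the high livers. The ID XM_003129617.1 of IL18BP measured 0.213, 0.299, 0.880, 0.758 and 0.226 CPM in the low livers and 0.773, 0.417, 1.16, 1.12 and 1.47 CPM in the high livers (log2 fold change 1.19 ± 0.560, exact permutation p = 0.0556), with overlap. IL18R1 measured 0.639, 0.822, 0.587, 1.14 and 0.792 CPM in the low livers and 0.193, 0.833, 0.363, 0.224 and 0.183 CPM in the high livers (log2 fold change -1.10 ± 0.538, exact permutation p = 0.0397). High replicate 2 alone of the high livers reached into the low range. The edgeR adjusted p of all 3 was 0.9998.

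**Figure D5:**
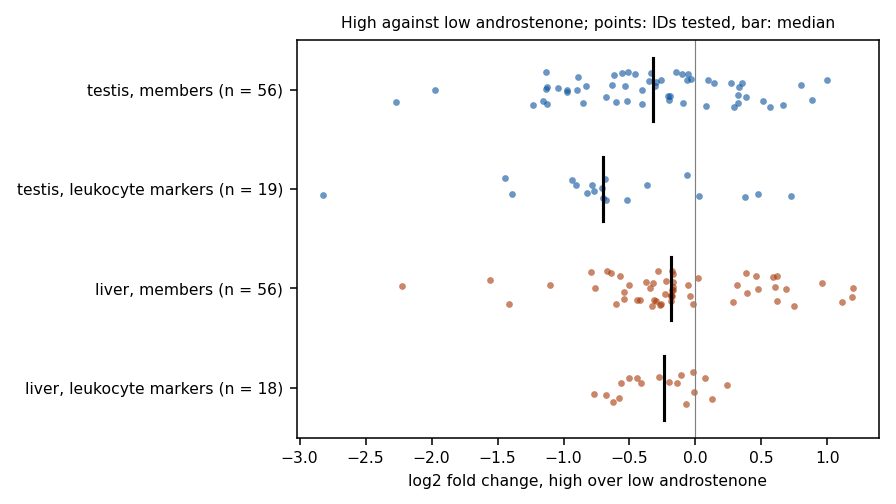
Log2 fold change (high over low androstenone, x axis) of the 56 chemokine, interleukin and Toll-like receptor IDs tested in each tissue, beside those of 19 leukocyte markers in testis and 18 in liver; each point is an ID and the bar is the median. The medians were -0.32 and -0.70 in testis and -0.19 and -0.24 in liver, and no point was called.

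Whether the androstenone difference itself differed between testis and liver was tested as an interaction over 20 libraries. Of 64 IDs, 0 were called by edgeR's quasi-likelihood test or by DESeq2, against 0.0% of all 19065 IDs, and 4, or 6.25%, had an unadjusted p under 0.05, against 4.67% of all IDs. That count was 2 with DESeq2, with the replicate block, and without any 1 of low testis replicate 2, high testis replicate 2, low liver replicate 1 and high liver replicate 3. It was 2 of 38 IDs with the stricter filter on low counts. It rose to 5 without any 1 of low testis replicate 1, high testis replicate 3 and high liver replicate 4. IL31RA came first, with an interaction of -1.73 ± 0.555 on the log2 scale (unadjusted p = 0.00471, edgeR adjusted p = 1.00 when rounded). In testis it measured 2.04, 2.14, 1.46, 1.97 and 0.886 CPM in the low boars and 1.28, 1.17, 1.15, 0.476 and 1.34 CPM in the high boars, the opposite order to liver, with overlap in both tissues. IL12RB1, a chain of the IL12 and IL23 receptors, followed with 5 counts in testis, 0 of them in the high boars, and 12 in liver, so that its fitted interaction depends on the prior count. The third was the ID XM_003129617.1 of IL18BP, with an interaction of -2.03 ± 0.915. It measured 0.195, 0, 0.0883, 0.328 and 0.253 CPM in the low testes and 0.213, 0.0864, 0.0958, 0 and 0 CPM in the high testes, where most libraries were at or under 3 counts.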

How the data were processed

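Testis and liver RNA of 5 high and 5 low androstenone boars was sequenced by the authors as single 100 bp reads on an Illumina HiSeq, after SMART cDNA amplification, with 1 lane per sample. Reads were called with CASAVA 1.7, aligned with BWA and handled with SAMtools, per the submitters' processing notes, on RefSeq mRNA and UniGene sequences of an earlier Sscrofa assembly. The authors deposited raw read counts per reference ID, without normalization. The counting tool and the handling of reads that match several IDs are not given in the sources used here. Each sample listed 21785 lines for 21755 IDs, since 10 IDs were listed 4 times and were used once. Symbols came from a RefSeq table of the Sscrofa11.1 assembly, matched on accession without version, and no coordinates were taken from it. Groups followed the sample titles.

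Counts were tested with edgeR 4.0.16 in R 4.3.3 (TMM, quasi-likelihood, Benjamini-Hochberg over all IDs tested), after dropping IDs whose libraries in the fit had fewer than 10 counts together. An ID was called when its adjusted p was under 0.05 and it differed by 1.5-fold or more. Tissues and the interaction were fitted over 20 libraries, and androstenone within each tissue over 10. Standard errors were obtained from the F statistic and the log2 fold change. Exact permutation tests of single genes were two-sided and used log2(CPM + 0.5). DESeq2 1.42.0, RLE and total-count scaling, other filters, a depth covariate, the replicate number as a block and leaving out each library were the alternatives. The procedure was tested on simulated data. Python 3.11.15 with scipy 1.17.1 and matplotlib 3.10.9 made summaries and figures.

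The genes, lists and tests were chosen with earlier results of these data known. Genes were named by a rule: per direction the 12 called with the largest tissue difference, the 5 with the smallest unadjusted p in each androstenone comparison, the 3 with the smallest in the interaction, all Toll-like receptors, and the 2 furthest genes per direction of each pathway list. Genes outside the rule, such as CXCL12, CXCL16, CCL21 and the further members given by family, were chosen after their values were seen. Leaving out low androstenone testis replicate 3 together with high androstenone liver replicate 3 was added after the data were seen.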

Additional observations from a re-analysis of the deposited data

Results flagged for a closer look

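In groups of 5 libraries, a library was looked at again when its gap to the nearest other exceeded 0.71 of the group's range, the Dixon limit. Of 91 pairs of a named gene and a group, 11 met this. The rate of 1 in 20 that belongs to this limit assumes normally distributed values. These were CPM of genes chosen partly for their values, so whether 11 exceeds that rate was not tested. The reads behind these values were not traced further.

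In testis, the high androstenone group had CCL20 at 0.216 CPM in replicate 2, CXCL13 at 4.32 CPM and CCL5 at 1.82 CPM in replicate 5, each the highest of its group. IL28B at 1.78 CPM and IL31RA at 0.476 CPM were the lowest, both in high replicate 4. In the low group, replicate 1 was lowest for TLR2, at 0 CPM, and for IL13RA1, at 0.292 CPM.

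In liver, low replicate 5 was highest for CCL24, at 1.02 CPM, and for IL7, at 11.0 CPM. Low replicate 1 was lowest for IL18, at 9.05 CPM, and high replicate 4 was lowest for CCL3L1, at 0 CPM, beside 1.38 to 2.50 CPM in the other 4 high livers.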

How the results depend on the processing

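Of the 64 IDs compared between testis and liver, 58 were called. The count was 57 with RLE, with a depth covariate, with no filter (73 IDs tested) and with IDs of a symbol summed, 55 at a fold of 2, 53 with DESeq2 (9 higher in testis, 44 higher in liver) and 50 with total counts. It was 35 of 38 tested with a stricter filter on low counts, since fewer IDs were tested, and 53 without low testis replicate 3 and high liver replicate 3 together. Leaving out each library gave 53 to 58 calls. With total counts the log2 fold change of TLR7 turned to 0.28, of CCL2 to 0.70, of CCL21 to 0.76, of CXCL16 to 0.54, of CXCL8 to 0.033 and of IL18R1 to 0.12. CCL2 ranged from -0.41 to 0.086 with 1 library left out, and turned without low liver replicate 2. The calls of CCL20, CCL25, CCR3, TLR7 and IL18R1 were lost with DESeq2.

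The androstenone comparisons gave 0 calls in testis, in liver and for the interaction under each alternative run, leaving out each library included (0 to 0), except that the trended dispersion alone called 2 IDs in testis. Over all IDs in testis, DESeq2 called 18 higher and 34 lower in the high group, where edgeR called 0. Same replicate numbers were not shown to mark the same boar. With the replicate number as a block the tissue comparison called 55 IDs (CCR3, IL31RA and TLR7 lost) and the androstenone comparisons called 0. Only testis and liver of the same androstenone group could share boars. There, correlations of same-numbered libraries ranged from -0.026 to 0.13 in the low group and from -0.041 to 0.38 in the high group. Their means were 0.073 and 0.17, against -0.019 and -0.045 for other numbers. In each group 2 of 5 libraries correlated best with their own number.

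Over 3 counts in every library held for 20 IDs in testis and 27 in liver, against 37 and 46 in at least 5 libraries. Scaled to the smallest library these were 32 and 38. Depth limits genes near this floor, for which tissue calls rest on few reads and androstenone differences were not detectable.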
